A study of Mus musculus with 12 samples.

Results

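Transcripts of apolipoproteins and of the lipid transfer protein that loads apolipoprotein B were measured in the livers of mice with a mutant nuclear receptor and in their wild-type controls. The 10 genes were chosen by name (Apoa1, Apoa2, Apoa4, Apoa5, Apob, Apoc1, Apoc3, Apoe, Apom and Mttp) as the rows of the value table that the platform annotation gives to these symbols. Each of the 10 had 1 probe set, and they stand among 19938 genes with a symbol of their own. The K289R group held 6 male mice with a knock-in of LRH-1, a receptor encoded by Nr5a2, in which a lysine to which the small protein SUMO is attached is replaced by arginine. The WT group held 6 male mice without it, and both groups are on the C57BL/6J background. The mice of both groups went without food for 24 h and then ate for 6 h, after which the liver was frozen. Each array came from a separate mouse, so the spread between arrays includes the spread between animals. The labels name no tissue-specific driver of the mutation. Ages, litters and array batches were not used here, since no source names them.

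Apolipoproteins are the protein part of plasma lipoproteins, the particles that carry triglyceride and cholesterol through the blood. In hepatocytes the microsomal triglyceride transfer protein, encoded by Mttp, loads lipid onto nascent apolipoprotein B, and the resulting very-low-density lipoprotein (VLDL) is secreted. Apolipoproteins A-I and A-II are the main proteins of high-density lipoprotein (HDL), whereas the small C apolipoproteins, apolipoprotein A-V and apolipoprotein E exchange between particles and govern lipolysis and uptake. LRH-1 is known to activate the human genes for apolipoproteins A-I and M in cultured liver cells.

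The letters of the promoters of these genes are described before their expression, because the mutated protein binds DNA. RefSeq (GRCm38.p6) promoter windows were found for 8 of the 10 genes, all but Apoc1 and Apoc3, and the 250 bases before the first listed transcription start were searched on both strands. The core of the LRH-1 recognition sequence, CAAGGNC, occurred in 2 of these 8 windows, those of Apoa4 and Apoe, and in 15% of 27025 promoters of the same length. In Apoa4 the match lay on the minus strand, from -115 to -109 relative to the start. In Apoe it lay on the plus strand, from -88 to -82. The general nuclear receptor core AGGTCA, which shares the letters AGGTC with the LRH-1 core where N is T, was in none of the 8 windows and in 13.8% of all. CAAAGTCC, a sequence bound by the liver factor HNF4, was also in none of the 8 and in 1.22% of all. Apoa2, Apoa5 and Apoe have further listed starts, and the second window of Apoa2 holds AGGTCA on the minus strand, from -238 to -233. A match is a run of letters and says nothing of whether the receptor binds there. The lack of a match does not show that a site is absent, since exact letters were searched in 250 bases only. The windows of Apoa1 and Apom, whose human counterparts LRH-1 is known to activate in cultured liver cells, hold no match. These windows are shown with those that hold a match, and capitals mark CAAGGNC or its reverse complement. They lie at chr9:46240594-46240843 (plus strand, Apoa4), chr7:19699189-19699438 (minus strand, Apoe), chr9:46228380-46228629 (plus strand, Apoa1) and chr17:35131802-35132051 (minus strand, Apom).
Apoa4: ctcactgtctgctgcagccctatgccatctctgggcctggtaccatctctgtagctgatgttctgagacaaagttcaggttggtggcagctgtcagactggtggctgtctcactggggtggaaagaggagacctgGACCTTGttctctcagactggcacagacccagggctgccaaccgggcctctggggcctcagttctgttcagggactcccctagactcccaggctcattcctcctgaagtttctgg
Apoe: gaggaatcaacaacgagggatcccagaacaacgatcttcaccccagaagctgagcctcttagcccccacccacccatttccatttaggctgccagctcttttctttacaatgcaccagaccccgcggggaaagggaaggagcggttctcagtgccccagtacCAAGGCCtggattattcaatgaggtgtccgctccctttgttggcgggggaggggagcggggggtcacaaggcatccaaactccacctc
Apoa1: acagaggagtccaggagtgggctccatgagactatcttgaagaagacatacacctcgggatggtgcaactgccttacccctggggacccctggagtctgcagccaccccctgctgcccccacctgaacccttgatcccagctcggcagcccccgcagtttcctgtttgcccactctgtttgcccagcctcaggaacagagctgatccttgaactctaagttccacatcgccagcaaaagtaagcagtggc
Apom: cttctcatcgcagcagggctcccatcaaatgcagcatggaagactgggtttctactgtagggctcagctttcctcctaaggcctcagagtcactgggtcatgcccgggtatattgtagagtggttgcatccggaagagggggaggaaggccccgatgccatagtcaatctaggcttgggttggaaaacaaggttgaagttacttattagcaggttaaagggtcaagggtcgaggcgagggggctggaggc

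No member passed the test of a difference between K289R and WT livers. In limma's fit over all genes, 0 of the 10 members passed a Benjamini-Hochberg adjusted p under 0.05, and 0.572% of all 19938 genes did (114 genes; 0.481% were higher and 0.0903% lower in K289R). At an unadjusted p under 0.05, 1 member, Apoa4, passed, and 12% of all genes did. In none of the 10 were the arrays of the groups fully apart, a pattern seen in 1.24% of all genes. Of the members, 4 had a positive and 6 a negative log2 fold change, with a median of -0.04, against a median of -0.01 over all genes. For 8 members, all but Apoa4 and Apoa5, the 95% interval of the difference lay within 1.2-fold in either direction, as it did for 49.9% of all genes. For 9 members, all but Apoa4, it lay within 1.3-fold, as it did for 84.9% of all genes. Both bounds were chosen after the values were seen, and nothing is read from the members' share.

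**Figure D1:**
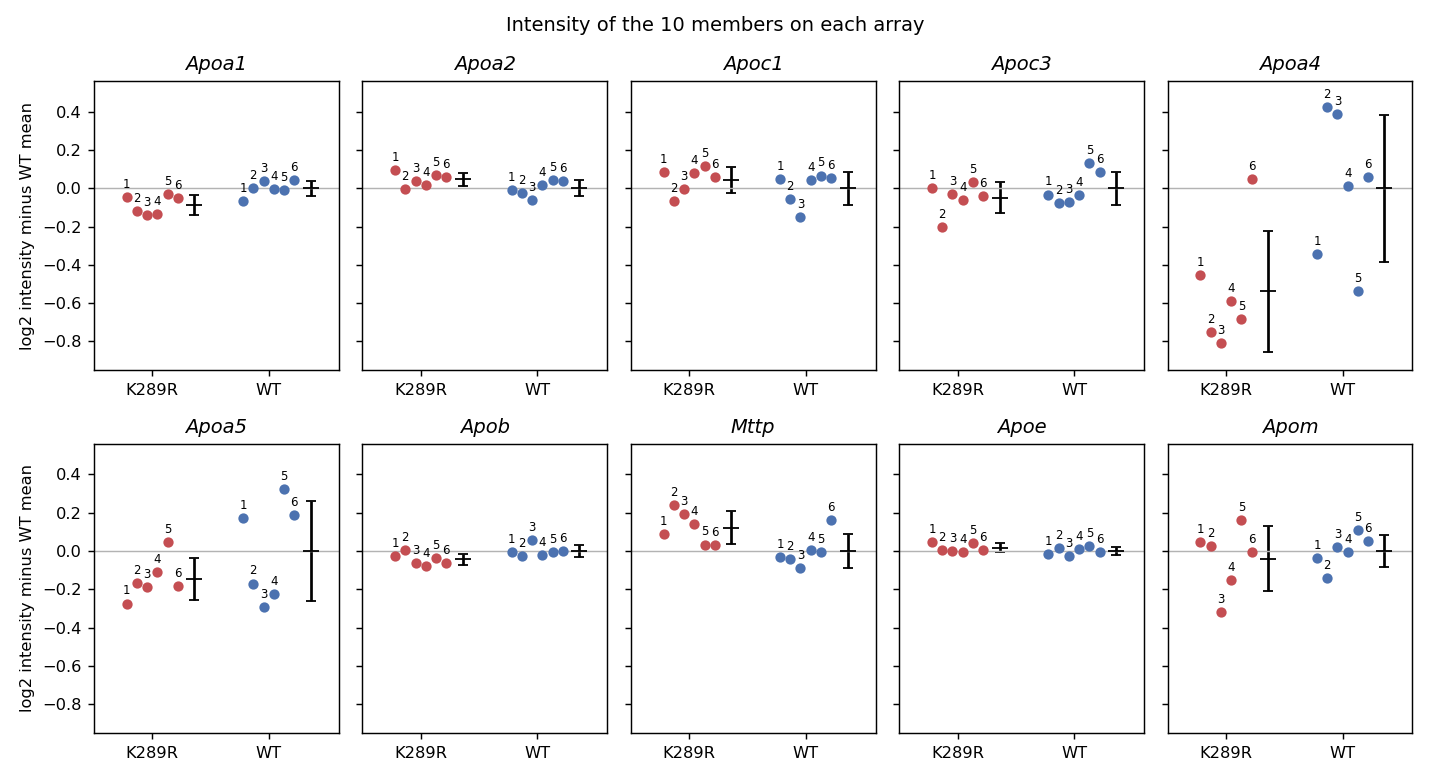
Log2 intensity of each member on each array minus the WT mean of that gene, on 1 shared axis; points are arrays numbered by replicate (K289R left, WT right), and bars show mean ± SD of 6 arrays. Apoa4 spreads far more than the other members, with 5 K289R arrays low and K289R 6 among the WT arrays.

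Apoa4 encodes apolipoprotein A-IV, which in mouse liver is made in varying amounts with feeding and hepatic fat and joins newly secreted triglyceride-rich particles and HDL. Its probe set (10585010) measured 1943, 1583, 1521, 1771, 1658 and 2757 on K289R arrays 1 to 6. On WT arrays 1 to 6 it measured 2099, 3575, 3478, 2681, 1835 and 2772. Of the K289R arrays, 4 lay below the lowest WT array, and K289R 6 lay level with the middle of the WT group. The mean was 1872 ± 458 in K289R and 2740 ± 704 in WT (SD, n = 6 each), and the log2 fold change was -0.54 (95% interval -0.89 to -0.19). The difference did not pass over all genes (limma, adjusted p = 0.193, unadjusted p = 0.00514).

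The size of the Apoa4 difference varied with single mice, but its sign did not. Over 23 other settings the log2 fold change ran from -0.66 to -0.45 and the adjusted p from 0.0589 to 0.575. Both ends of the range of fold changes came from leaving out 1 array, K289R 6 (adjusted p = 0.0589) and WT 2 (adjusted p = 0.405). The within-genotype SD of Apoa4 was 0.35 on the log2 scale, larger than that of 98.1% of all genes. WT arrays 1 and 3, which carried acute phase transcripts, stood at 2099 and 3478, on either side of the WT median of 2727. Without them the log2 fold change was -0.53 (adjusted p = 0.321). Without K289R 1 and 3, which carried pancreatic acinar transcripts, it was -0.49 (adjusted p = 0.466).

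Apoa4 lies in a cluster on chromosome 9 in which RefSeq (GRCm38.p6) places Apoa1, Apoc3, Apoa4 and Apoa5 next to each other. All of these genes had a negative log2 fold change, and none passed. Apoa1, the main protein of HDL, measured 5322 to 5744 in K289R livers, with a median of 5528, and 5599 to 6045 in WT livers, with a median of 5857. All 6 K289R arrays were below the WT median and 3 were below the lowest WT array, yet the log2 fold change was only -0.09 (95% interval -0.20 to 0.03, adjusted p = 0.541). The Apoa1 interval thus reached from 0.868-fold to 1.02-fold. Since limma draws the variance of each gene toward that of all genes, this interval is wider than the spread of Apoa1 alone would give.

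Apoc3 encodes an inhibitor of lipoprotein lipolysis and of particle uptake. It measured 4087 to 4801 in K289R livers, with a median of 4587, and 4462 to 5153 in WT livers, with a median of 4588. The ranges overlapped, K289R 2 lay below every WT array, WT 5 and 6 lay above every K289R array, and the log2 fold change was -0.05 (95% interval -0.19 to 0.09, adjusted p = 0.777). Apoa5 encodes a scarce apolipoprotein that promotes lipolysis of triglyceride-rich particles. It measured 723 to 903 in K289R livers, with a median of 775, and 713 to 1095 in WT livers, with a median of 881.

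The WT mice split widely in Apoa5: arrays 1, 5 and 6 measured 986, 1095 and 996, whereas arrays 2, 3 and 4 measured 777, 713 and 748. Apoa5 had a log2 SD of 0.11 in K289R and 0.26 in WT. Its log2 fold change was -0.15, with a 95% interval of -0.36 to 0.07 (adjusted p = 0.587), which reached down to 0.777-fold. The difference in spread was not tested.

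**Figure D2:**
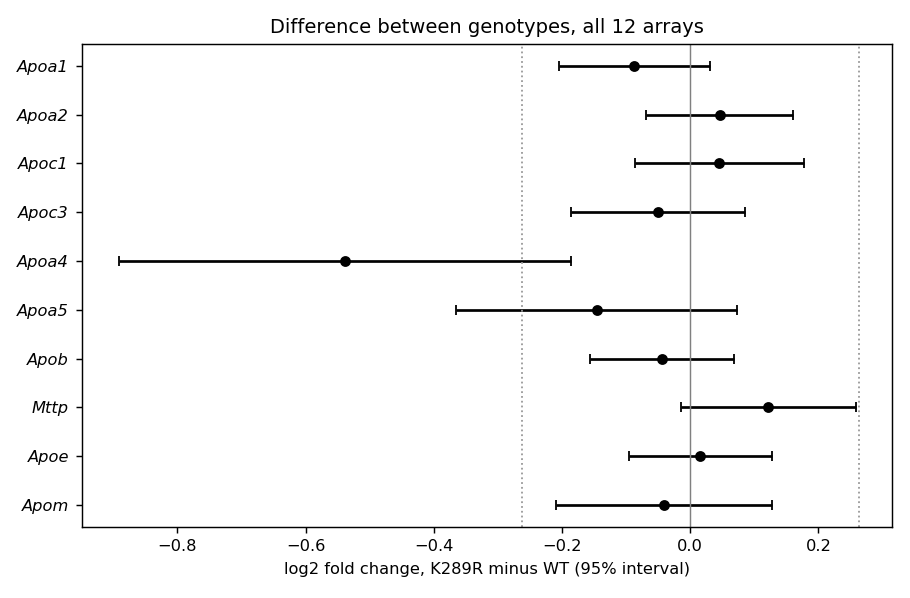
Log2 fold change of each member (K289R minus WT, limma, all 12 arrays) with its 95% interval; dotted lines mark 1.2-fold in each direction. Apoa4 is the 1 member whose interval does not include 0 (-0.89 to -0.19), although its adjusted p is 0.193, and 8 intervals lie between the dotted lines.

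Mttp and Apob, the genes of VLDL assembly, had small differences of opposite sign. Mttp (probe set 10502375) measured 908, 1009, 974, 940, 873 and 873 on K289R arrays 1 to 6. It measured 835, 828, 803, 857, 849 and 955 on WT arrays 1 to 6. All 6 K289R arrays were above the WT median of 842, and 5 of the 6 WT arrays were below the lowest K289R array. WT 6 lay within the K289R range. The log2 fold change was 0.12 (95% interval -0.01 to 0.26, unadjusted p = 0.0773, adjusted p = 0.473), and the interval ended just inside 1.2-fold.

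Apob encodes the structural protein that stays with each VLDL particle. It measured 3624 to 3833 in K289R livers, with a median of 3695, and 3757 to 3983 in WT livers, with a median of 3809. Of the K289R arrays, 4 lay below the lowest WT array. The difference was nevertheless slight, with a log2 fold change of -0.04 (95% interval -0.16 to 0.07, adjusted p = 0.766). The probe set reports total Apob transcript and does not separate edited from unedited mRNA, the forms that encode the short and the full-length protein.

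Apoa2, the second protein of HDL, measured 6127 to 6552 in K289R livers (median 6346) and 5872 to 6332 in WT livers (median 6150). K289R arrays 1, 5 and 6 were above the highest WT array, but the log2 fold change was 0.05 (95% interval -0.07 to 0.16, adjusted p = 0.759). Apoc1, whose product restrains lipolysis and receptor uptake, measured 3596 to 4083 in K289R livers (median 3958) and 3394 to 3945 in WT livers (median 3884). Its log2 fold change was 0.05 (95% interval -0.09 to 0.18, adjusted p = 0.797). Apoe, the ligand through which remnants are taken up by hepatocyte receptors, measured 6564 to 6815 in K289R livers (median 6619) and 6469 to 6716 in WT livers (median 6596). With a log2 fold change of 0.02 (95% interval -0.10 to 0.13, adjusted p = 0.927) it had the smallest difference of the members. It also had the smallest within-genotype SD of all 19938 genes, 0.022 on the log2 scale.

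Apom encodes the HDL protein that carries sphingosine-1-phosphate. It measured 200, 197, 155, 174, 217 and 193 on K289R arrays 1 to 6. On WT arrays 1 to 6 it measured 189, 176, 197, 194, 209 and 201. The K289R range enclosed the whole WT range, and the log2 fold change was -0.04 (95% interval -0.21 to 0.13, adjusted p = 0.863). K289R 3 was the lowest array, and without it the log2 fold change was 0.0145 (adjusted p = 0.960).

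Most of these probe sets were among the brightest of the arrays. Apoa1, Apoa2, Apob, Apoc1, Apoc3 and Apoe lay above the 99th percentile of every array (2033 to 2112), and Apoe reached 75.1% of the highest value on an array. Within-genotype log2 SDs were 0.022 for Apoe, 0.030 for Apob, 0.039 for Apoa2 and 0.045 for Apoa1, smaller than those of all but 0.186% of genes or fewer. Whether the arrays respond in proportion at this brightness was not tested. Apom, the dimmest member, averaged 190 ± 21.6 in K289R and 194 ± 11.3 in WT (SD, n = 6 each), against array medians of 26.8 to 29.2.

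Transcripts of other cell types were checked beside these values. Hepatocyte markers overlapped between the groups, with a mean log2 intensity of 11.94 to 12.01 over 7 genes in K289R and 11.96 to 12.06 in WT, and Alb, serum albumin, had a log2 difference of 0.01. Enterocyte markers matter because intestine also makes Apoa4, Apob and Mttp: over 10 genes they averaged 4.90 to 5.12 in K289R and 4.92 to 5.15 in WT, and none of them passed. Of these, villin (Vil1) measured 11.7 to 14.6 in K289R and 13.1 to 18.8 in WT, below the array medians, whereas Fabp2, which is not restricted to intestine, measured 308 to 536 in K289R and 369 to 501 in WT. Macrophage markers, of cells that also express Apoe, averaged 6.58 to 7.48 in K289R and 6.48 to 7.04 in WT over 12 genes. Stellate markers averaged 6.55 to 6.78 in K289R and 6.54 to 6.94 in WT, endothelial markers 7.12 to 7.39 in K289R and 6.88 to 7.29 in WT, and cholangiocyte markers 4.98 to 5.37 in K289R and 4.95 to 5.15 in WT. Acinar markers stood at 8.99 and 9.64 on K289R 1 and 3, against at most 4.77 in WT, and acute phase genes at 9.42 and 9.59 on WT 1 and 3, the highest in the series. Across bulk liver, fewer cells of a type and less RNA per cell cannot be told apart.

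Covariation of the members among mice of the same genotype passed for few pairs, and the count varied with the arrays used and the normalization. After the genotype means were removed, the 45 pairs had Pearson r from -0.65 to 0.84 over 12 arrays, with a median of 0.22. The highest was between Apoa2 and Apoc3 (r = 0.84, permutation p = 0.00105, adjusted p = 0.0421 over 45 pairs; rho = 0.80, permutation p = 0.00373, adjusted p = 0.0559). Without WT 3 and K289R 2, the arrays farthest from the Apoa2 median, its r was 0.79. Apoa2 with Apoc1 had r = 0.83 (permutation p = 0.00187, adjusted p = 0.0421; rho = 0.80, permutation p = 0.0035, adjusted p = 0.0559), and r = 0.61 without the same arrays. Apoc1 with Apoc3 had r = 0.75 (permutation p = 0.00702, adjusted p = 0.105; rho = 0.76, permutation p = 0.0123, adjusted p = 0.110) and r = 0.58 without them. So 2 pairs passed by r and 0 by rho, where 0 is the count of the permutation test adjusted over the 45 pairs. By r, 0 pairs passed in 8 of the 12 settings that left out 1 array, 0 without WT 1 and 3 and 0 with quantile normalization. The pairs share arrays.

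The lowest r joined 2 neighbours on chromosome 9. Apoa4 and Apoa5 had r = -0.65 (permutation p = 0.0432, adjusted p = 0.260; rho = -0.60, permutation p = 0.0743, adjusted p = 0.257), which did not pass. Within WT r was -0.82 and within K289R -0.27, with 6 arrays each, and the difference between these was not tested. WT 3, second highest in Apoa4, was the array lowest in Apoa5, and WT 5, lowest in Apoa4 in its group, was the highest in Apoa5. Without K289R 6 and WT 5 the pooled r was -0.64.

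**Figure D3:**
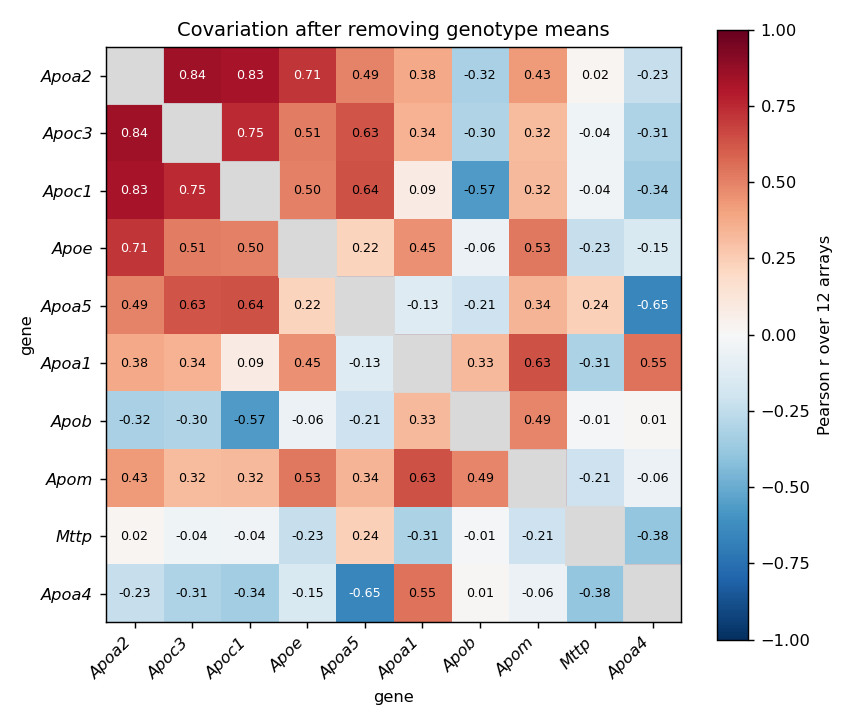
Pearson r between members over 12 arrays after the genotype means were removed; red is positive and blue negative. Apoa2, Apoc3, Apoc1 and Apoe form a block of positive values from 0.50 to 0.84, and Apoa4 with Apoa5 has the lowest value, -0.65.

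Among 57 other genes of lipoprotein biology in 5 lists, 2 rose and 0 fell at an adjusted p under 0.05 (limma; background 0.572% of all genes). Of the 8 other apolipoproteins tested none passed, and their median log2 fold change was -0.07. The nearest to passing were Apol8 (log2 fold change -0.11, adjusted p = 0.636) and Apod (-0.13, adjusted p = 0.675), both dim. Apoc4, the neighbour of Apoc1, measured 2033 ± 203 in K289R and 2132 ± 56.3 in WT (SD, n = 6 each, log2 fold change -0.07, adjusted p = 0.698).

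Of 16 genes of VLDL assembly and secretion none passed, with a median log2 fold change of 0.04. Dgat2, which makes triglyceride for secretion and storage, had the smallest p. It measured 2262 to 2638 in K289R livers and 1845 to 2226 in WT livers, so the groups did not overlap, and its log2 fold change of 0.24 had an adjusted p of 0.150. Sort1, a sorting receptor that affects apolipoprotein B secretion, had a log2 fold change of -0.22 (adjusted p = 0.375). The partner subunit of the transfer protein, P4hb, had a log2 fold change of -0.03 (adjusted p = 0.850).

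Lipg rose among 8 genes of receptors and clearance, and it is also on the list of HDL formation and remodelling. It encodes endothelial lipase, which cleaves HDL phospholipid. Its intensity was 72.5 ± 18.9 in K289R and 46.9 ± 3.28 in WT (SD, n = 6 each, 1.51-fold, adjusted p = 0.0428), with 52.7 to 107 in K289R and 42.6 to 52.6 in WT. The call was lost in 10 of 12 fits that left out 1 array, where the adjusted p ran from 0.00991 to 0.101. Leaving out the arrays with acinar transcripts gave an adjusted p of 0.0788, and leaving out those with acute phase transcripts gave 0.149. The adjusted p of Lipg was 0.219 without all 4 of these arrays and 0.0264 with the replicate number as a block. Vldlr, the VLDL receptor, measured 31.1 ± 3.08 in K289R and 23.4 ± 3.47 in WT, near the array medians (log2 fold change 0.42, adjusted p = 0.0680). It passed in 1 of 12 fits that left out 1 array, where the adjusted p ran from 0.0271 to 0.157. Its adjusted p was 0.0357 with the replicate number as a block, which does not mark shared litters or days in the labels, and 0.0470 without WT 1 and 3. It was 0.315 without K289R 1 and 3 and 0.195 without all 4 of these arrays. The receptor list had a median log2 fold change of 0.13, against -0.01 over all genes, and 7 of its 8 genes were positive. All 7 endothelial markers were also positive, with a median of 0.12, and whether this bears on Lipg was not tested.

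The other 8 of 9 genes of HDL formation and remodelling did not pass, and the list median was 0.08. Pltp, the phospholipid transfer protein, had a log2 fold change of 0.49 with a wide interval (0.07 to 0.91, adjusted p = 0.340). Lcat, which esterifies HDL cholesterol, had a log2 fold change of -0.06 (adjusted p = 0.742). Of 18 regulators of apolipoprotein genes, Ppargc1a rose, a coactivator of HNF4 and other receptors (84.9 ± 5.54 in K289R and 59.8 ± 7.05 in WT, SD, n = 6 each, 1.42-fold, adjusted p = 0.00426). It passed in all 12 fits that left out 1 array. Next came Rora (log2 fold change 0.28, adjusted p = 0.0819). Creb3l3 and Hnf4a, factors known to drive Apoa4 and other members in mouse liver, had log2 fold changes of -0.09 (adjusted p = 0.613) and -0.13 (adjusted p = 0.528). Whether these bear on Apoa4 was not tested. The regulator list had a median of 0.16, and 12 of its 18 genes were positive. At an unadjusted p under 0.05 (limma), 7 of the 18 passed, as did 12% of all genes. The list was chosen with earlier results of these data known, and nothing is read from this share.

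**Figure D4:**
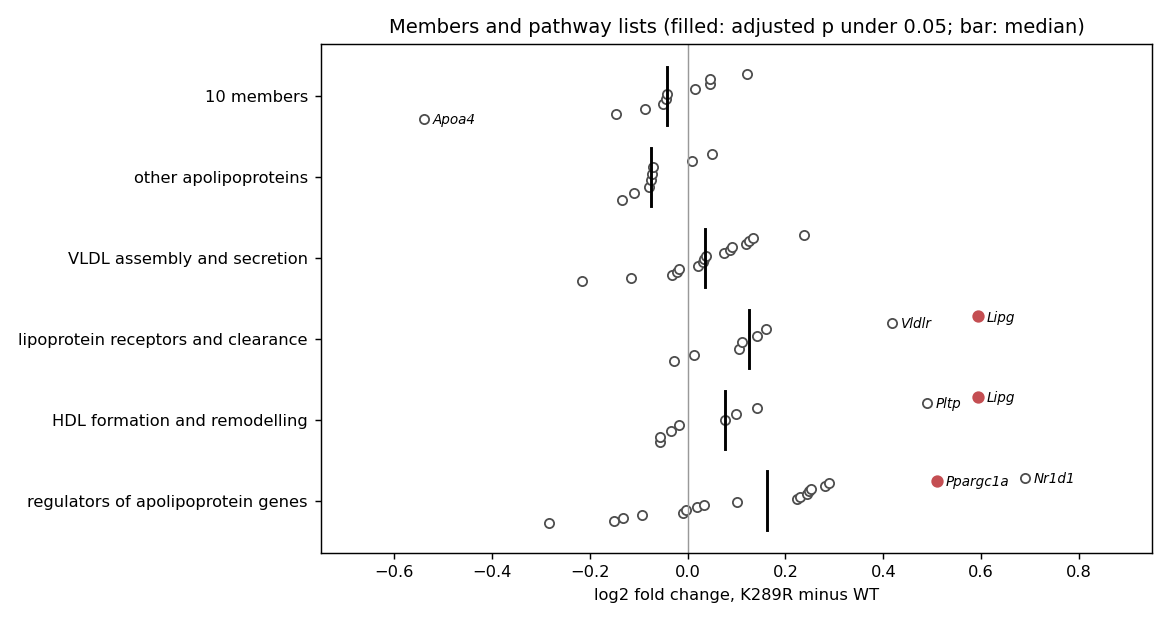
Log2 fold change (K289R minus WT) of each gene, for the 10 members and the 5 lists of other lipoprotein genes; filled points have an adjusted p under 0.05 and vertical bars are medians. Lipg (on 2 lists) and Ppargc1a are the filled points, and Apoa4 is the lowest gene shown at -0.54.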

How the data were processed

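The deposited values are linear probe-set intensities, 1 per probe set and array, made with Affymetrix Expression Console, per the submitters' processing notes; the sources used here give no version, summarization method, background correction or normalization. Array medians ran from 26.8 to 28.3 in K289R and from 27.4 to 29.2 in WT, and the main fit did not rescale them. Log2 was taken without a pseudocount. Of 35556 rows, 21789 had 1 gene symbol; symbols were updated through RefSeq gene IDs (21698 matched). A gene with several probe sets was represented by the brightest, which left 19938 genes. K289R was compared with WT by limma 3.58.1 (R 4.3.3; lmFit, eBayes) on 12 arrays without covariates, with Benjamini-Hochberg adjustment over all genes and a threshold of 0.05. In eBayes the variance of each gene is drawn toward a value shared by all genes. Intervals and p-values therefore do not measure the spread of each gene alone. The intervals are wider than that spread would give for steady genes such as Apoa1, Apob and Mttp, and narrower for Apoa4. Means ± SD are of linear intensities, and fold changes of log2 means.

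Covariation used 100000 permutations of arrays within genotype (20000 in the alternatives). On simulated data the fit recovered 90 of 100 genes changed 1.5-fold and 98 of 100 changed 2-fold among 19938 genes, with 5 false calls in 193. The changed genes were picked at random, and smaller changes were not simulated. The recovery therefore does not apply to small differences or to genes as variable as Apoa4. The members, the lists and the arrays left out were chosen with earlier results of these data known. The text names all members, and in each list the called genes and otherwise the 2 genes with the smallest p; Vldlr, Pltp and Rora, next by p in lists with a called gene, are also named. P4hb, Apoc4, Lcat, Creb3l3 and Hnf4a were added for their role after their values were seen. Of the marker lists the text gives the mean and, for hepatocytes and enterocytes, genes listed first (Alb, Fabp2, Vil1). Genes without a probe set of a single symbol were not analysed here. The number of arrays limits the precision.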

Additional observations from a re-analysis of the deposited data

Results flagged for a closer look

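Of 20 groups of 6 arrays (10 members in each genotype), 1 had an array far from the others on the log2 scale and 3 on the linear scale, by Dixon's criterion on the gap to the nearest array. Chance flags about 1 in 20 groups. Apob on WT 3 measured 3983, against 3819 on the next array, a gap of 0.721 of the range on the log2 scale and 0.727 on the linear scale. Apoa4 on K289R 6 measured 2757, against 1943 on the next array of its group, a gap of 0.659 of the range on the linear scale only. Mttp on WT 6 measured 955, against 857 on the next array, a gap of 0.645 of the range on the linear scale only.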

How the results depend on the processing

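In 23 other settings, 12 of which left out 1 array, 0 members passed, and the lowest adjusted p of any member was 0.0589 (Apoa4 without K289R 6). Of 230 values of single members in these settings, 227 kept their sign and their side of the threshold. The small differences did depend on the array scale, since equal array medians moved every member upward. The log2 fold change was then -0.0066 for Apob, -0.013 for Apoc3, -0.0040 for Apom and -0.050 for Apoa1. For Apoa2 and Apoc1 it was 0.083, and for Mttp 0.16. The sign turned for Apom, with a log2 fold change of 0.0145 without K289R 3, 0.00649 without K289R 1 and 3 and 0.00254 without those and WT 1 and 3, and with 1 array left out it ran from -0.0814 to 0.0145; these settings differ in the arrays used. The count of changed genes over the whole table was 114; it was 75 without K289R 1 and 3, 65 without those and WT 1 and 3, and 81 to 159 with 1 array left out. The number of member pairs that passed by r was 2; it was 6 with equal array medians, 0 with quantile normalization, 0 without WT 1 and 3, 0 without those and K289R 1 and 3, and 0 to 2 with 1 array left out, and the cause was not tested. With the replicate number as a block 0 members and 111 genes passed. Arrays of the same number had correlations of deviations between -0.23 and 0.23. Arrays of different numbers were not compared, so these values cannot tell whether the numbers pair the mice. Leaving out the arrays that stood apart was chosen after seeing the data. No detection call was used, so dim genes such as Vldlr and Apod were not told from background.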

Other observations

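The genes whose within-genotype variation was most like that of Apoa4 and Mttp, the members with the smallest p, were looked up over all 19938 genes and are given as a description. Each r below is among the highest of that search. The r that such a search gives by chance was not computed, so no shared regulation is read from these genes. For Apoa4 they were D1Pas1 (r = 0.93), Kcna1 (r = 0.93) and Slc22a22 (r = 0.92) over 12 arrays. All of these were dim, with means of 14.3, 27.8 and 5.12 in K289R and 14.5, 27.9 and 5.05 in WT, and their log2 fold changes were -0.02, -0.0016 and 0.03. For Mttp they were Acads, a short-chain acyl-CoA dehydrogenase of fatty acid oxidation (r = 0.90, 529 in K289R and 469 in WT), the mitochondrial ribosomal gene Mrps7 (r = 0.88, 216 in K289R and 209 in WT) and Mzt2 (r = 0.88, 60.3 in K289R and 52.0 in WT). None of these 6 genes passed the comparison of the genotypes, with adjusted p from 0.296 to 0.997 by limma.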
